A study of Homo sapiens with 6 samples.

Results

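The cytokine and growth factor ligands and receptors described here were taken by their symbols from the 1161 rows that the authors listed for dormant against proliferating breast cancer cells in the brain. The symbols searched were those of the CXC and CC chemokines, the interleukins, the tumour necrosis factor (TNF) superfamily, the bone morphogenetic protein (BMP), growth differentiation factor, inhibin, activin and transforming growth factor beta (TGF-beta) families, the fibroblast, vascular and platelet-derived growth factors, the Wnt ligands with their Frizzled receptors, the Eph receptors and CRLF2. Of 17 matching rows, FZD7, TGFB2 and PDGFRB were left out, and the remaining 14 rows held 13 genes, because CRLF2 lies in the part of the sex chromosomes that X and Y share and was listed under both copies with the same values. The 6 genes GDF15, INHBA, CXCL1, CXCL8, IL32 and IL11 encode ligands. TNFRSF1B, FZD2, BMPR2, ACVR2B and CRLF2 encode receptors. The symbols brought in a carrier protein, FGFBP1, and an antisense transcript, EPHA5-AS1, which are neither ligand nor receptor.

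The cells were MDA-MB-231, an established human triple negative breast cancer line, tagged with green fluorescent protein (GFP) and loaded with CellVue Claret (CV), a membrane dye that thins out as cells divide. Female C.B-17 SCID mice of 6 to 8 weeks of age, which lack working T and B cells but keep macrophages and microglia, received the cells through the internal carotid artery. The brains were taken at day 28, and the GFP+ cells were sorted into a population that had kept the dye, GFP+CV+, labelled cell cycle-inactive and called dormant by the study, and a population that had lost it, GFP+CV-, labelled proliferating. There were 3 mRNA sequencing libraries of each population. Both libraries numbered 1 came from the same pool of 10 mice, both numbered 2 from another pool of 10 and both numbered 3 from a pool of 9. Every library thus carried the same tag, the same dye treatment and the same host, and the results hold for a single cell line. The GFP+CV- cells stood as the reference in each comparison.

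GDF15, INHBA, BMPR2 and ACVR2B belong to the TGF-beta superfamily. Of its dimeric ligands, the activins and BMPs join type I and type II receptor kinases that phosphorylate SMAD proteins. CXCL1 and CXCL8 are chemokines that draw neutrophils through CXCR2 and are classical targets of NF-kappaB. Interleukin 11 signals through gp130 and STAT3, and CRLF2 pairs with the interleukin 7 receptor alpha chain to bind thymic stromal lymphopoietin. Cytokines of this kind pass between tumour cells, astrocytes and microglia in brain metastases.

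The promoters of 4 ligands are printed because their windows hold matches to common promoter motifs, and because these ligands went in both directions. The sequences are the 250 bases before the start site in RefSeq on GRCh38.p14, 5′ to 3′ on the strand of the gene. Both strands were searched for TATAAA, the core of a TATA box, for TGANTCA, which AP-1 binds, and for GGNNTTTCC, a form of the NF-kappaB site. Capitals mark the matches. The regions were chr4:73869143-73869392 on the plus strand for CXCL1, chr4:73740319-73740568 on the plus strand for CXCL8, chr19:18385908-18386157 on the plus strand for GDF15 and chr19:55370464-55370713 on the minus strand for IL11.
CXCL1: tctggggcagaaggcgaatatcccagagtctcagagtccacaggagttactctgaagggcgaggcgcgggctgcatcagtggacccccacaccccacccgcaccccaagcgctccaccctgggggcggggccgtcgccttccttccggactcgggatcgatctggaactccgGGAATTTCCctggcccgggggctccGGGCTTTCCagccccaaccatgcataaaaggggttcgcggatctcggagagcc
CXCL8: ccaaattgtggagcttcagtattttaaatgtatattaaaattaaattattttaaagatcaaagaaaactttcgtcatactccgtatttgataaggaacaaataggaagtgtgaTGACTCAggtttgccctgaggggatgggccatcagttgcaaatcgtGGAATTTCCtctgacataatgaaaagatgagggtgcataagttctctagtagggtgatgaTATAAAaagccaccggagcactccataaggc
GDF15: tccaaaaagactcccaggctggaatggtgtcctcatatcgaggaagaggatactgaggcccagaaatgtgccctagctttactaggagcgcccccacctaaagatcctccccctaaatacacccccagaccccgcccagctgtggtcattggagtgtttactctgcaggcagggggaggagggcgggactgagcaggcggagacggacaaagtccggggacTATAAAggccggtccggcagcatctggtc
IL11: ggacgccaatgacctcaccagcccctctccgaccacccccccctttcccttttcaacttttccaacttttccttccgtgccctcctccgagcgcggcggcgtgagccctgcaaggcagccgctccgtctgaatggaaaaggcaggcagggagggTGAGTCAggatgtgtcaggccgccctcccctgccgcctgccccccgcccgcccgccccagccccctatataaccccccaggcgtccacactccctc

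CXCL1 held 2 matches to GGNNTTTCC, at bases -78 to -70 and -53 to -45 from the start site. CXCL8 held one at -91 to -83, with a TGANTCA match at -137 to -131 and TATAAA at -31 to -26. GDF15 held TATAAA at -29 to -24 and no match to the other motifs. IL11, the ligand that was lower in GFP+CV+ cells, held a TGANTCA match at -96 to -90. RefSeq windows were given for 11 of the 13 genes, not for FZD2 and CRLF2. GGNNTTTCC occurred in 4 of the 11 (CXCL1, CXCL8, IL32 and INHBA) and in 5.48% of 35116 windows of all genes, TATAAA in 3 (CXCL8, GDF15 and INHBA) and in 10.7% of all windows, and TGANTCA in 2 (CXCL8 and IL11) and in 6.57%. A match describes the letters of the window, and no binding was measured.

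Of the 13 genes, 9 were higher in GFP+CV+ cells and 4 were lower. The higher ones were 5 of the 6 ligands and 4 of the 5 receptors. IL11, CRLF2, FGFBP1 and EPHA5-AS1 were lower. All 13 passed an adjusted p of 0.05 in edgeR's quasi-likelihood test, with adjusted p between 0.00322 and 0.0237. So did 99.7% of all listed genes, 49.6% of them higher and 50% lower, because only genes that passed the authors' own test of this comparison are in the table. The calls of the 13 genes are therefore fixed in part by that selection, and what follows describes sizes and spreads. Adjusted over all 62700 annotated genes instead, with unlisted genes taken to have larger p, none of the 13 passed (edgeR adjusted p 0.174 to 1), while all 13 had an unadjusted p under 0.05. For each of the 13 genes all GFP+CV+ libraries lay on one side of all GFP+CV- libraries, as they did for 99.2% of listed genes. The median log2 fold change, GFP+CV+ over GFP+CV-, was 1.09 for the 13 genes and -0.33 for all listed genes. Among higher genes it was 1.55 for the 9 genes here and 1.71 for the 576 listed genes. Fewer cells that express a gene and less RNA per cell cannot be told apart in such bulk libraries.

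**Figure D1:**
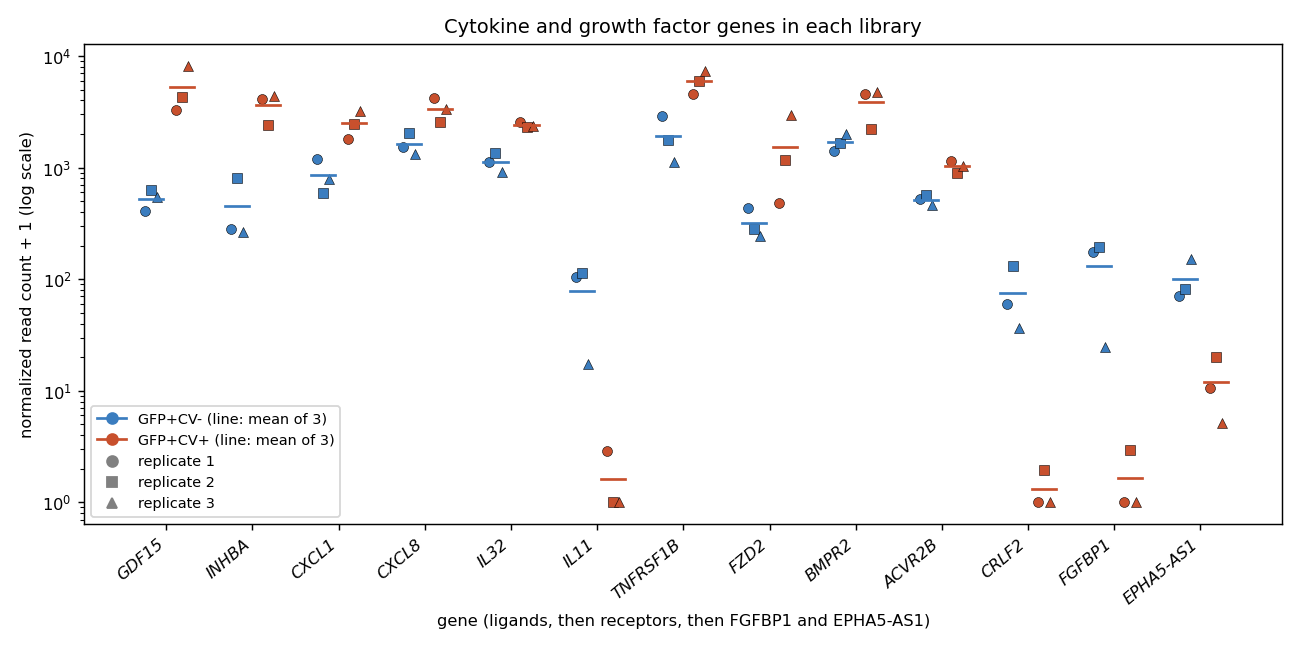
Normalized read count plus 1 on a log axis in each of the 6 libraries for the 13 genes, ligands first, then receptors, FGFBP1 and EPHA5-AS1. Blue marks GFP+CV- and orange GFP+CV+, the shape gives the replicate number, and the bar is the mean of 3 libraries. The populations do not overlap for any gene, and IL11, CRLF2 and FGFBP1 lie at or near 0 in all GFP+CV+ libraries.

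GDF15, a stress-induced member of the TGF-beta superfamily, had the largest rise of the 6 ligands, not separated from that of INHBA. The gene lies on chromosome 19 at 18374731 to 18389176. Its normalized read counts, the deposited counts divided by the size factor of each library, were 410, 628 and 539 in GFP+CV- replicates 1, 2 and 3. They were 3263, 4304 and 8167 in GFP+CV+ replicates 1, 2 and 3. The lowest GFP+CV+ library was thus far above the highest GFP+CV- library, although GFP+CV+ replicate 3 stood well above the other two. The mean went from 525 ± 109 to 5245 ± 2584 (SD, n = 3), which is 3.32 as a log2 fold change (standard error, SE, 0.40, edgeR adjusted p = 0.00322). Without GFP+CV+ replicate 3 it was 2.85. GDF15 ranked 84th of the 576 higher genes by log2 fold change.

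INHBA encodes the beta A subunit, of which activin A is the homodimer, and lies on chromosome 7 at 41667168 to 41705834 on the minus strand. Its normalized read counts were 280, 800 and 265 in the GFP+CV- libraries and 4122, 2396 and 4389 in the GFP+CV+ libraries. Replicate 2 was the highest of the GFP+CV- libraries and the lowest of the GFP+CV+ libraries, so the pool numbered 2 gave the smallest difference. Within pools, the GFP+CV+ count was 14.7, 2.995 and 16.6 times the GFP+CV- count. The mean rose from 448 ± 305 to 3636 ± 1082 (SD, n = 3), a log2 fold change of 3.02 (SE 0.52, edgeR adjusted p = 0.00354). It was 3.74 without GFP+CV- replicate 2, where GDF15 stood at 3.47, and 2.75 without GFP+CV- replicate 3, where GDF15 stood at 3.34. INHBA had the second largest rise among the 6 ligands. With the replicate block GDF15 and INHBA stood at 3.23 and 3.21, so their order was not settled. An antisense gene, INHBA-AS1, shares 248 exon bases with INHBA, and the library kit does not mark strand, so reads of these bases cannot be told apart.

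The chemokine genes CXCL8, at 73740519 to 73743716, and CXCL1, at 73869393 to 73871308, are neighbours on chromosome 4, 125676 bases apart. The 2 protein-coding genes between them were not listed. CXCL1 had normalized read counts of 1181, 587 and 792 in the GFP+CV- libraries and 1805, 2468 and 3245 in the GFP+CV+ libraries. The gap between the populations was narrower than for GDF15, and the GFP+CV+ library of pool 1 was only 1.53 times its GFP+CV- partner. The mean rose from 854 ± 302 to 2506 ± 721 (SD, n = 3), with a log2 fold change of 1.55 (SE 0.36, edgeR adjusted p = 0.0065).

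CXCL8, the gene of interleukin 8, had normalized read counts of 1519, 2029 and 1324 in the GFP+CV- libraries and 4161, 2540 and 3382 in the GFP+CV+ libraries. Replicate 2 gave the highest GFP+CV- and the lowest GFP+CV+ value, as it did for INHBA. The mean rose from 1624 ± 364 to 3361 ± 811 (SD, n = 3), a log2 fold change of 1.05 (SE 0.28, edgeR adjusted p = 0.00888).

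IL32 encodes a cytokine that induces TNF and CXCL8 in myeloid cells and lies on chromosome 16 at 3065297 to 3082192. It had normalized read counts of 1112, 1361 and 914 in the GFP+CV- libraries and 2553, 2298 and 2369 in the GFP+CV+ libraries. The GFP+CV+ values were the most even of the 13 genes. The mean rose from 1129 ± 224 to 2407 ± 132 (SD, n = 3), a log2 fold change of 1.09 (SE 0.25, edgeR adjusted p = 0.00627). Its deposited counts were fractional in all 6 libraries, and how reads shared with other places were divided was not tested.

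IL11 went the other way. The gene, on chromosome 19 at 55364382 to 55370463 on the minus strand, had 144, 104 and 20 deposited counts in the GFP+CV- libraries. It had 2, 0 and 0 counts in the GFP+CV+ libraries. Normalized, these were 104, 112 and 16.3 against 1.90, 0 and 0. IL11 was thus near the floor of detection in the dormant population, and GFP+CV- replicate 3 was also low. Scaled by size factors, the summed GFP+CV- counts were 107 times the summed GFP+CV+ counts, with a 95% exact interval of 29.3 to 886 that covers counting error only. Among whole counts of 1 to 50 in the table, 64.2% to 87.9% per library were even, and if reads were counted in pairs such an interval is too narrow. The edgeR adjusted p was 0.00499.

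TNFRSF1B, which encodes TNF receptor 2, was the most abundant receptor and lies on chromosome 1 at 12166991 to 12209228. Its normalized read counts were 2874, 1762 and 1126 in the GFP+CV- libraries and 4605, 5969 and 7285 in the GFP+CV+ libraries. The GFP+CV- value was highest and the GFP+CV+ value lowest in pool 1, so the ratio within pools ran from 1.6 in pool 1 to 6.47 in pool 3. The mean rose from 1920 ± 885 to 5953 ± 1340 (SD, n = 3), a log2 fold change of 1.63 (SE 0.36, edgeR adjusted p = 0.00582).

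FZD2, a Frizzled receptor for Wnt ligands, lies in a single exon on chromosome 17 at 44557484 to 44561262. Its normalized read counts were 435, 278 and 244 in the GFP+CV- libraries and 477, 1166 and 2931 in the GFP+CV+ libraries. The rise was carried by pools 2 and 3, and in pool 1 the GFP+CV+ count was 1.10 times the GFP+CV- count. The mean went from 319 ± 102 to 1525 ± 1266 (SD, n = 3), with a log2 fold change of 2.26 (SE 0.67, edgeR adjusted p = 0.013). It was 1.37 without GFP+CV+ replicate 3, and without GFP+CV- replicate 3 it was 2.10 with an edgeR adjusted p of 0.0508.

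BMPR2 and ACVR2B encode type II receptors of the TGF-beta superfamily, for BMPs and for activins. BMPR2, on chromosome 2 at 202376327 to 202567751, had normalized read counts of 1416, 1669 and 1990 in the GFP+CV- libraries and 4578, 2200 and 4795 in the GFP+CV+ libraries. GFP+CV+ replicate 2 was close to the GFP+CV- values. The mean rose from 1692 ± 287 to 3858 ± 1439 (SD, n = 3), a log2 fold change of 1.19 (SE 0.33, edgeR adjusted p = 0.0105).

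ACVR2B, on chromosome 3 at 38453890 to 38493142, had normalized read counts of 520, 564 and 465 in the GFP+CV- libraries and 1156, 896 and 1033 in the GFP+CV+ libraries. These were tight in both populations, with means of 516 ± 49.6 and 1028 ± 130 (SD, n = 3). The log2 fold change was 0.99 (SE 0.35, edgeR adjusted p = 0.0237), the smallest of the 13 genes. With the pools entered as a replicate block the edgeR adjusted p was 0.0619, so that 12 of the 13 genes passed under the block, against 94.5% of listed genes. The call was also lost without any one of the GFP+CV- libraries or GFP+CV+ replicate 1, with edgeR adjusted p of 0.0562, 0.0503, 0.0699 and 0.08. Leaving out any single library kept the calls of 11 of the 13 genes, all but ACVR2B and FZD2. When the size factors were instead set by the median ratio over the listed genes alone, CXCL8, IL32, BMPR2 and ACVR2B no longer passed, with log2 fold changes of 0.47, 0.52, 0.57 and 0.41.

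CRLF2 was the receptor that was lower. It had 82, 120.5 and 44 deposited counts in the GFP+CV- libraries and 0, 1.29 and 0 in the GFP+CV+ libraries, and these values stood identically in the rows of the X and Y copies. The X copy lies at 1190490 to 1212723 on the minus strand. Normalized, the values were 59.4, 129 and 35.8 against 0, 0.96 and 0. The receptor was thus detected in every GFP+CV- library and hardly at all in the dormant population. After rounding, the scaled ratio of summed counts was 196, with a 95% exact interval of 34.8 to 7769 for counting error only, and the edgeR adjusted p was 0.00322. Whether reads of both copies were split or each given to both copies was not tested.

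FGFBP1 encodes a carrier that releases fibroblast growth factors from the matrix and lies on chromosome 4 at 15935577 to 15938740 on the minus strand. It had 242, 179 and 29 counts in the GFP+CV- libraries and 0, 2 and 0 in the GFP+CV+ libraries. Normalized, these were 175, 193 and 23.6 against 0, 1.92 and 0. The pattern was that of IL11, with GFP+CV- replicate 3 low. The scaled ratio of summed counts was 179, with a 95% exact interval of 49.3 to 1484, and the edgeR adjusted p was 0.00441. IL11, CRLF2 and FGFBP1 were among 129 listed genes with at most 3 counts summed over all GFP+CV+ libraries. Of these genes, 64 were lowest in GFP+CV- replicate 3, 32 in replicate 1 and 33 in replicate 2.

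EPHA5-AS1 is a non-coding transcript on chromosome 4 at 65669961 to 65698029, opposite the Eph receptor gene EPHA5. Its normalized read counts were 69.6, 79.8 and 151 in the GFP+CV- libraries and 9.51, 19.2 and 4.14 in the GFP+CV+ libraries. Replicate 3 was the highest of the one population and the lowest of the other. The mean fell from 100.2 ± 44.5 to 10.95 ± 7.63 (SD, n = 3), a log2 fold change of -3.16 (SE 0.81, edgeR adjusted p = 0.00793). Of its 1262 exon bases, 535 are shared with EPHA5 on the other strand. Since the kit does not mark strand, reads of EPHA5-AS1 and EPHA5 in these bases cannot be told apart, and EPHA5 itself was not listed.

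**Figure D2:**
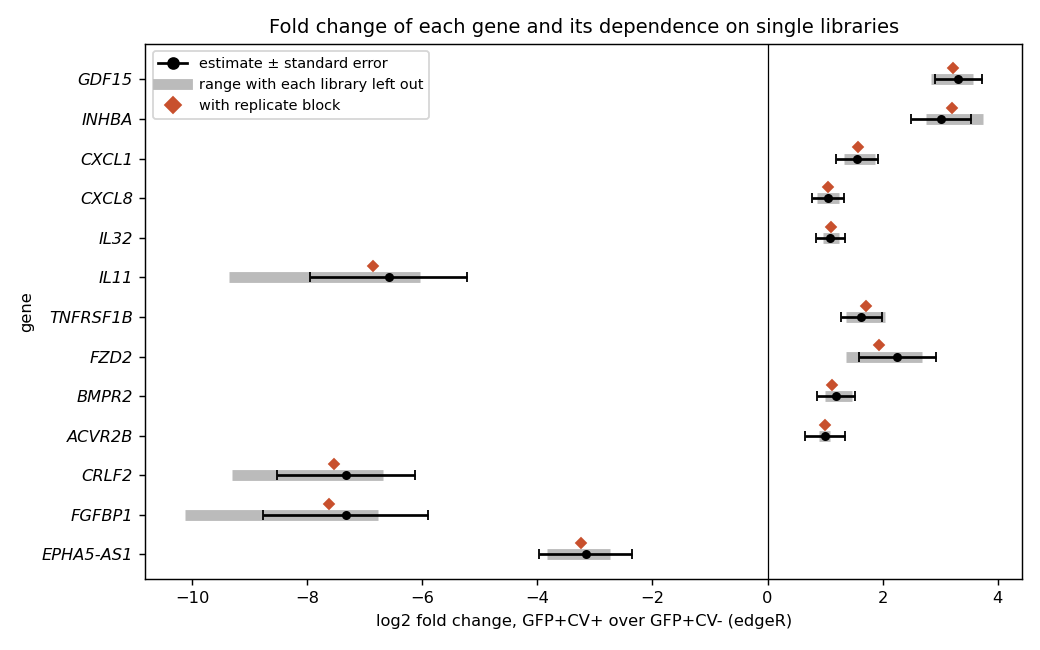
Log2 fold change of each gene, GFP+CV+ over GFP+CV-, from edgeR (black points, bars give the standard error), with the range over 6 fits that each leave out a library (grey) and the value with the replicate block (orange diamonds). No range crosses 0, which was fixed in advance because the libraries of the populations do not overlap for any gene. The widest ranges are those of IL11, CRLF2 and FGFBP1, whose GFP+CV+ counts are at or near 0 and whose fitted values depend on the prior count.

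Levels can be set against each other only per length, so normalized read counts were divided by the length of all annotated exons in kilobases. In GFP+CV- cells CXCL8 and CXCL1 led, at 628 ± 141 and 627 ± 222 per kb, followed by TNFRSF1B at 508 ± 234, IL32 at 352 ± 69.8 and GDF15 at 252 ± 52.4 (SD, n = 3). Each of these differed from its neighbour in the order by less than the sum of their SDs. Within every GFP+CV- library, however, TNFRSF1B was above IL32, and IL32 was above GDF15 (346 against 197, 424 against 301, 285 against 258). The order of CXCL8, CXCL1 and TNFRSF1B changed between the GFP+CV- libraries. INHBA stood at 54.1 ± 36.8 and the receptors ACVR2B and CRLF2 at 32.9 ± 3.16 and 38.3 ± 24.9. In GFP+CV+ cells GDF15 came first, at 2513 ± 1238 per kb, ahead of CXCL1 at 1840 ± 529, TNFRSF1B at 1576 ± 355 and CXCL8 at 1299 ± 313. Neighbours among these again differed by less than the sum of their SDs, but that spread leaves out that the genes share libraries. In GFP+CV+ replicates 1, 2 and 3 GDF15 was above CXCL1 (1564 against 1325, 2062 against 1812, 3913 against 2382). CXCL1 was above TNFRSF1B in each of them, whereas TNFRSF1B was below CXCL8 in replicate 1 only. IL32, at 750 ± 41.0, was below CXCL8 by more than the sum of their SDs. INHBA reached 439 ± 131 and FZD2 404 ± 335, which were not separated.

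**Figure D3:**
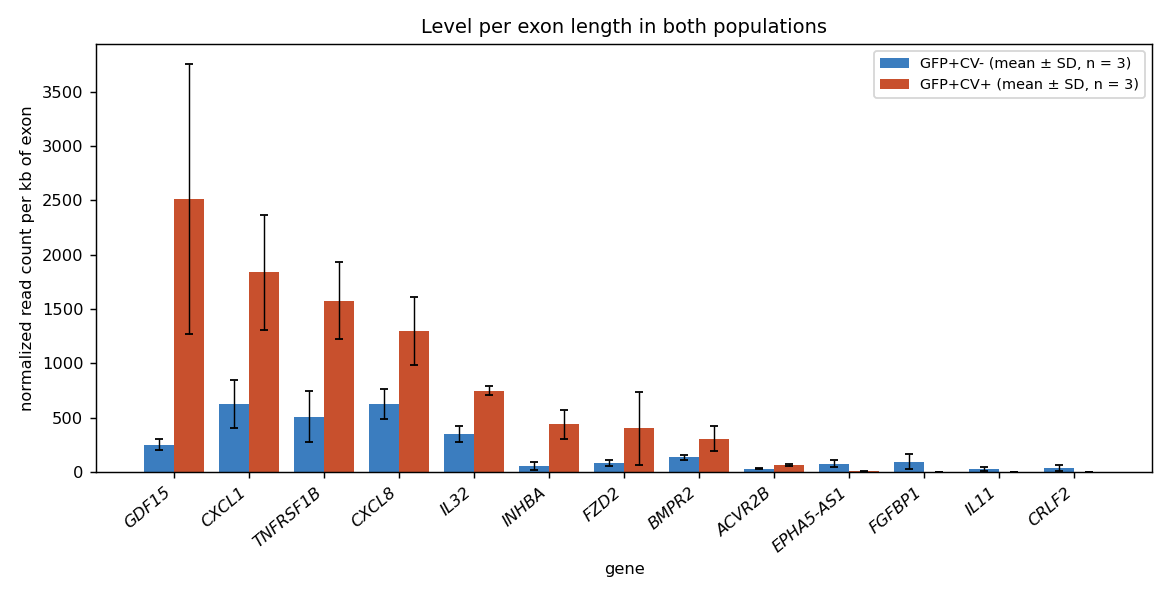
Normalized read count per kb of exon of the 13 genes in both populations (bars give the mean and whiskers the SD of 3 libraries), ordered by the GFP+CV+ mean. GDF15 has the highest GFP+CV+ bar at 2513 and CXCL8 and CXCL1 the highest GFP+CV- bars at 628 and 627.

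The higher genes did not peak in the same library. GFP+CV+ replicate 3 held the highest value of 6 of the 9 (GDF15, INHBA, CXCL1, TNFRSF1B, FZD2 and BMPR2) and replicate 1 that of the other 3 (CXCL8, IL32 and ACVR2B). Of the 576 listed higher genes, 65.6% were highest in GFP+CV+ replicate 3.

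Other genes of the same pathways were counted from fixed lists, which were chosen with earlier results of these data known. For reference, the authors listed 1161 rows, and 62700 genes are annotated in all, expressed here or not. Of 41 modulators and transducers of TGF-beta, BMP and activin signals, 10 were listed, 8 higher and 2 lower in GFP+CV+ cells. Their log2 fold changes had a median of 1.72, beside -0.33 for all listed genes, of which 49.6% were higher. The listed higher genes alone had a median of 1.71 and the listed lower genes -0.96. The median of a list thus depends on its share of higher genes. FST, which encodes the activin antagonist follistatin, rose from 498 ± 95.9 to 4180 ± 3180 normalized counts (SD, n = 3; log2 fold change 3.07, SE 0.54, edgeR adjusted p = 0.00355). Without GFP+CV+ replicate 3 the log2 fold change of FST was 2.23. NOG, which encodes the BMP antagonist noggin, had a mean of 44.9 ± 17.4 in GFP+CV- and 482 ± 212 in GFP+CV+ libraries, with a log2 fold change of 3.42 (SE 0.70). SMAD1, the transducer of BMP signals, rose by 1.55 (SE 0.26) on the log2 scale, AMH, a ligand of the same superfamily, by 4.38 (SE 0.998) and TGIF2, a repressor of SMAD-driven transcription, by 1.52 (SE 0.37). The value of AMH was 4.97 without GFP+CV- replicate 3 and 3.86 without GFP+CV- replicate 2. The ID genes, classical targets of BMP signals, went both ways, with ID1 and ID3 lower and ID4 higher. ID1 had 14740, 10320 and 15360 normalized counts in the GFP+CV- libraries and 5834, 3177 and 1756 in the GFP+CV+ libraries, a log2 fold change of -1.91 (SE 0.41, edgeR adjusted p = 0.00551). ID4, which fell outside the rule for genes given with values and was added after its values were seen, had 194, 160 and 314 against 770, 438 and 1014, a log2 fold change of 1.74 (SE 0.54, edgeR adjusted p = 0.0151). Without GFP+CV- replicate 2 the edgeR adjusted p of ID4 was 0.0514.

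Of 46 Wnt pathway components and targets, 11 were listed, 10 higher and 1 lower, and the median of their log2 fold changes was 1.82, where 49.6% of all listed genes were higher and the median was -0.33. Among listed higher genes alone the median was 1.71. NKD1, a target and inhibitor of the pathway, had normalized counts of 1653, 2877 and 1543 in the GFP+CV- libraries and 6294, 8708 and 12970 in the GFP+CV+ libraries, a log2 fold change of 2.20 (SE 0.35, edgeR adjusted p = 0.00322). TLE1, a co-repressor, rose by 1.89 (SE 0.28) on the log2 scale, LGR6, an R-spondin receptor, by 2.37 (SE 0.47), SP5, a target, by 3.28 (SE 0.65) and GSK3B, a kinase of the destruction complex, by 1.69 (SE 0.35). Without GFP+CV+ replicate 2 the value of LGR6 was 1.67. APCDD1, an inhibitor at the membrane, went from 6.41 ± 9.29 to 1108 ± 399 normalized counts (SD, n = 3). The lower gene was LGR4, another R-spondin receptor. Activating and inhibiting components were both among the higher genes.

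The lists for the other cytokines held fewer listed genes than the TGF-beta and Wnt lists. Over all listed genes 49.6% were higher and 50% lower. Of 36 JAK-STAT components 2 were listed, STAT2 higher with a log2 fold change of 0.95 (SE 0.14) and PTPN6, which encodes the phosphatase SHP-1, lower with -0.85 (SE 0.21). Of 40 TNF receptor and NF-kappaB components 3 were listed. RELB, the NF-kappaB subunit of the non-canonical pathway, had 308, 190 and 363 normalized counts in the GFP+CV- libraries and 2924, 1818 and 1765 in the GFP+CV+ libraries, with a log2 fold change of 2.92 (SE 0.40, edgeR adjusted p = 0.00322). TNIP3, an inhibitor of NF-kappaB activation, had 128, 106 and 24.4 against 0, 1.92 and 0 normalized counts, and SIGIRR, a receptor that dampens interleukin 1 signals, was lower with a log2 fold change of -1.28 (SE 0.33). Of 11 other chemokine genes ACKR3, a scavenger of CXCL12, was listed. It had 0, 0 and 1.63 normalized counts in the GFP+CV- libraries and 358, 463 and 85.6 in the GFP+CV+ libraries. Of 25 genes of the FGF and GDNF families, FLRT2, which binds FGF receptors, was higher (log2 fold change 1.97, SE 0.62). The value of FLRT2 was 2.80 without GFP+CV- replicate 2 and 1.35 without GFP+CV+ replicate 3, and without GFP+CV- replicate 3 its edgeR adjusted p was 0.0557. In the same list NRTN, which encodes neurturin, had 24.6, 329 and 8.13 normalized counts in the GFP+CV- libraries and was at 0 in all GFP+CV+ libraries. None of the 8 ephrin genes was listed.

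Of 61 other ligands and receptors 12 were listed, 9 higher and 3 lower, and the median of their log2 fold changes was 1.44, again beside 49.6% higher and a median of -0.33 over all listed genes. The median of the listed higher genes alone was 1.71. SEMA3E and SEMA3A, which encode secreted semaphorins, rose by 2.90 (SE 0.45) and 0.91 (SE 0.17) on the log2 scale, PLXNA3, a semaphorin receptor chain, by 1.42 (SE 0.31) and NGFR, the low-affinity neurotrophin receptor, by 3.57 (SE 0.76). Without GFP+CV+ replicate 3 the value of NGFR was 2.69. The endothelin receptor gene EDNRB had 253, 151 and 140 normalized counts in the GFP+CV- libraries and 0.95, 0 and 1.38 in the GFP+CV+ libraries. DLL1, a Notch ligand, had 366, 86.3 and 48.8 against 0.95, 0 and 0. These 2 genes thus shared with IL11, CRLF2 and FGFBP1 a level near 0 in every GFP+CV+ library. Together the lists held 268 genes, of which 41 were listed, 31 higher and 10 lower, and all 41 passed the edgeR threshold with the replicate block, as did 94.5% of all listed genes. With size factors from the median ratio over the listed genes, 23 of the 31 higher genes passed, and with equal totals 8 of the 10 lower genes.

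**Figure D4:**
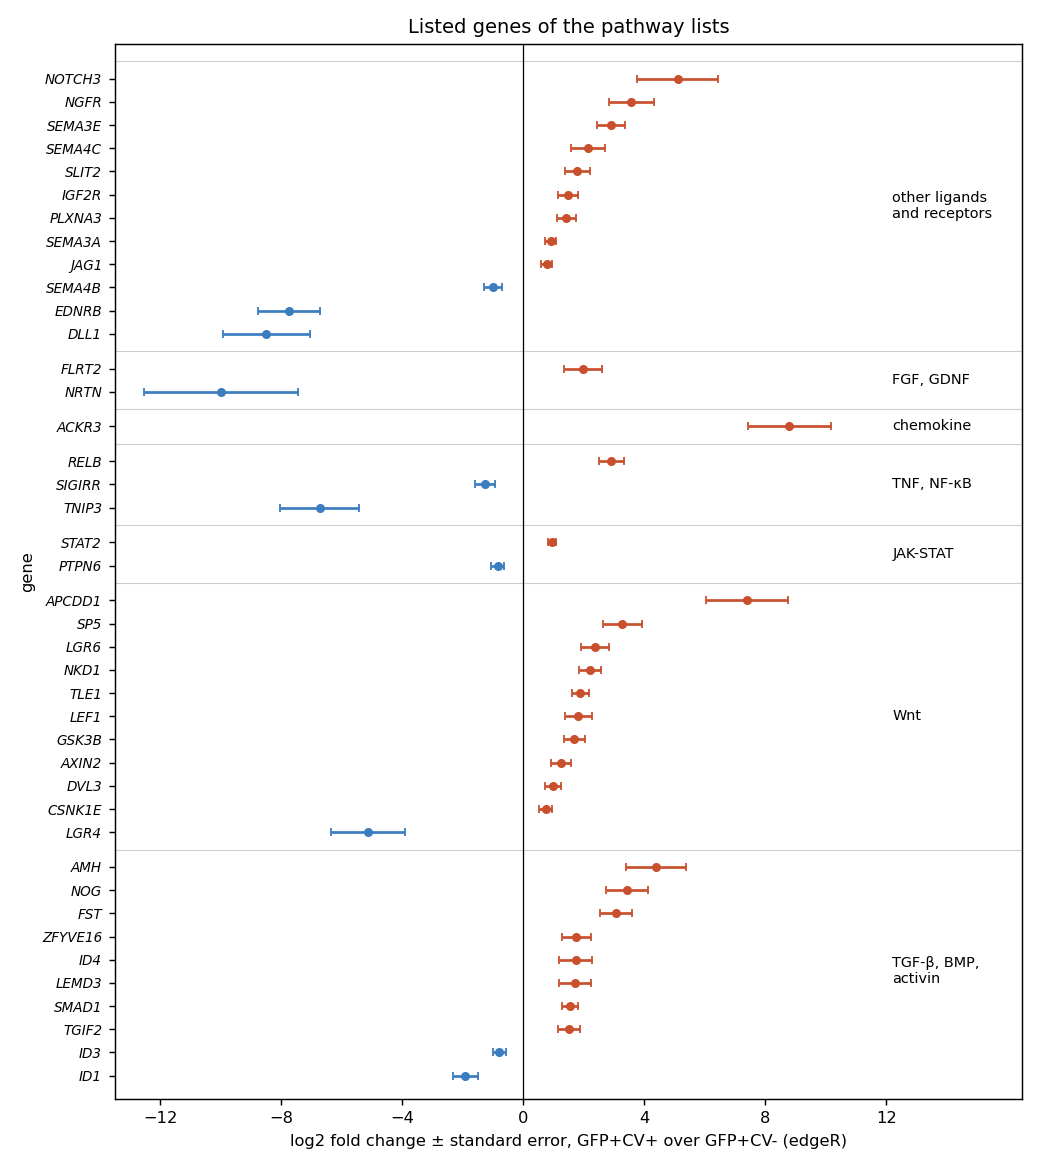
Log2 fold change, GFP+CV+ over GFP+CV-, with its standard error (edgeR) for the 41 listed genes of the pathway lists, grouped by list. Genes to the right of 0 are higher in GFP+CV+ libraries. In the TGF-beta list 8 of 10 lie to the right and in the Wnt list 10 of 11, beside 49.6% of all listed genes.

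Markers of other cells of the brain moved between the populations too, and their part in the results above was not tested. Of all listed genes, 49.6% were higher and 50% lower, and a list with 1 listed marker rests on that gene alone. All 6 listed of 10 fibroblast and mural cell markers were higher in GFP+CV+ libraries, with summed normalized counts of 4560 to 7762 in the GFP+CV- and 44361 to 71769 in the GFP+CV+ libraries. One of them, NOTCH3, was also among the other ligands and receptors, and PDGFRB was among the genes left out. All 4 listed of 10 astrocyte markers were higher (603 to 1352 against 7788 to 21953), as were 1 of 8 endothelial markers (1.45 to 71.2 against 362 to 1370), 1 of 8 oligodendrocyte markers (74.8 to 188 against 1351 to 3357) and 2 of 6 mast cell markers (0 to 9.75 against 80.6 to 971). The 3 listed of 13 microglia and macrophage markers were lower, at 59874 to 120230 against 36134 to 47132, mainly through CD74. The mean of CD74 in GFP+CV- libraries was 76520, near that of the keratin KRT18 at 81700. Which cells gave the CD74 reads was not tested. The means of ITGB2 and LAPTM5 fell from 830 to 10.8 and from 10170 to 2348 normalized counts. The 1 listed of 8 neuron markers, GRIN2B, was at 69.0 to 403 in GFP+CV- libraries and at 0 in GFP+CV+ libraries. Of 8 markers of the cell line and of epithelial cells, the keratins KRT8, KRT18 and KRT81 were listed and lower. Summed, they stood at 217720 to 256200 against 121240 to 158180, mostly through KRT8 and KRT18. The mean of KRT81 fell from 9314 to 2103 normalized counts. Defining markers that are not in the table could not be read, and reads that mapped to the mouse genome had been discarded by the authors.

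The listed genes summed to 7978664 to 17928777 counts per library, which is a part of each library and not its depth. The depth of the libraries is not given by the table. GFP+CV- libraries had no counts for 8 to 25 listed genes and GFP+CV+ libraries for 117 to 132. The size factors ranged from 0.724 to 1.38. The pools were separate groups of mice from 3 independent experiments, so a pool and its experiment cannot be told apart. The p-values rest on the spread between libraries of a population, with a dispersion that draws on all listed genes. Pairing by pool enters only under the replicate block.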

How the data were processed

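Full-length cDNA libraries (Smart-seq2, not stranded) of the sorted populations had been sequenced. Per the submitters' processing notes and the study's methods, the authors checked reads with FastQC 0.11.8, trimmed them with cutadapt, aligned them with STAR 2.7 to joined human and mouse assemblies (GRCh38.p12 and GRCm38.p6), counted them with Rsubread, multi-mapping reads included, and discarded mouse reads. The deposited values are estimated counts per gene as the authors' counting gave them, of which 43.2% to 49.6% per library were not whole. The authors' normalized read counts, a signal value, are these counts made whole and divided by a DESeq2 size factor per library. Columns of the authors' own comparison (mean, fold changes, standard error, statistic and p-values) were not used. No column of per-sample values was left without a sample (0 columns).

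Counts were rounded and fitted with edgeR 4.0.16 in R 4.3.3 (quasi-likelihood test, the authors' size factors, population as the only term, all 6 libraries, all 1161 listed rows), two-sided, with Benjamini-Hochberg adjustment over the table and a threshold of 0.05. Standard errors were taken from the log2 fold change and its F statistic. The fit was tested on simulated data in which most genes were unchanged. Of the listed genes 99.7% were called, so the simulation gives no error rate for them. The dispersion came from the listed genes alone. Exact permutation of 3 against 3 libraries cannot go below p = 0.1, so none is given. Alternatives used limma 3.58.1, DESeq2 1.42.0, other size factors, a minimum mean count of 50, unrounded counts, a replicate block and each library left out. Same-numbered libraries came from the same pool of mice, so the numbers pair them by the study's sorting. The deviations from group means of same-numbered libraries correlated across genes at 0.057, -0.018 and 0.001. Coordinates and exon lengths are from GENCODE 44 on GRCh38, where 1156 of the listed identifiers were found. Intervals and the floor of 3 counts cover counting error only.

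Genes named are all members by symbol and, for each of 8 pathway lists, the listed genes, with values for up to 6 by smallest edgeR p. A further 8 lists hold cell type markers. The members and lists were chosen with earlier results of these data known.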

Additional observations from a re-analysis of the deposited data

How the results depend on the processing

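No alternative turned the direction of any of the 13 genes or, under other size factors, of any listed gene of the pathway lists. For the 13 genes only other size factors could have turned it, because their libraries do not overlap between the populations. Of 193 fold changes of the 13 genes under all alternatives but the wider adjustment described last, 183 kept their call and 10 lost it. Size factors from the median ratio over the listed genes shifted the median log2 fold change of all listed genes by -0.58, which left 346 listed genes higher and 5 of the 9 higher members past the threshold and brought the share of higher calls from 49.8% to 37.2%. Lost were CXCL8, IL32, BMPR2 and ACVR2B. Equal totals of the listed genes shifted the median by 0.29, left 372 listed genes lower and put the share of higher calls at 60.8%. A minimum mean of 50 removed IL11 and CRLF2, leaving 2 lower members. With the replicate block for the pools, 8 members were higher and 4 lower, and 544 listed genes were higher and 553 lower. The block changed no other call of a member than that of ACVR2B. With each library left out, 7 to 9 members were past the threshold as higher and 4 as lower. Adjusting over all 62700 annotated genes, an alternative added after the data were seen, left 1 listed gene higher and 0 lower, with 0 members and 0 genes of the pathway lists in either direction. That adjustment takes genes not listed to have larger p-values, and by construction it tests many more genes. The table gives no depth, so for IL11, CRLF2 and FGFBP1 only counts at or near 0 can be stated for GFP+CV+ cells.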

Other observations

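Ratios taken within a library need no size factor. The ratio of INHBA to FST, the activin subunit to its antagonist follistatin, ran from 0.487 to 2.06 in the GFP+CV- libraries and from 0.559 to 1.69 in the GFP+CV+ libraries. The populations overlapped, although the normalized counts of both genes did not. The ratio of GDF15 to INHBA likewise overlapped, at 0.784 to 2.03 in GFP+CV- and 0.792 to 1.86 in GFP+CV+ libraries. The ratio of CXCL8 to CXCL1 was 1.29 to 3.46 in GFP+CV- and 1.03 to 2.31 in GFP+CV+ libraries, not divided by exon length. These ratios were not tested.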
